A study of Caenorhabditis elegans with 24 samples.

Results

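The genes mig-21, dpy-19 and mig-13 of Caenorhabditis elegans were followed across the 8 groups of a study of distal tip cells (DTCs). They are 3 of the 46778 genes in the count table, found by symbol, and all 3 passed the filter on low counts that kept 16887 genes. They were chosen with results of these data known, because mig-21 and mig-13 mark the DTC libraries, so they were chosen by their level in DTC libraries over that in other cells. The difference between DTC libraries and libraries of other cells is therefore given for these genes as a description, without a test.

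The study isolated cells from wild-type hermaphrodites that carried a Venus label in the DTC, the cell that caps each gonad arm, leads its elongation and serves as the germline stem cell niche. At late L3, early L4, late L4 and the adult stage, Venus-positive cells were taken as the DTC fraction and non-fluorescent cells as the fraction of other cells, with 3 libraries of polyadenylated RNA per group and 24 libraries in all. All groups shared the wild-type genotype, the Venus label and growth on OP50 bacteria at 20 °C, and 30000 to 60000 cells went into an extraction. The promoter that drives Venus is not given in the sources used here, and the other-cell fraction is a mixture of every unlabelled cell type.

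These genes are known from the Q neuroblasts, a left and right pair of cells in the larva whose descendants migrate along the body. mig-21 encodes a membrane protein with thrombospondin type 1 repeats, and dpy-19 encodes the endoplasmic reticulum enzyme that attaches mannose to tryptophans of such repeats; in C. elegans its known substrates include MIG-21 and the netrin receptor UNC-5. Both genes act with the receptors UNC-40 and PTP-3 in the left-right polarity of the Q cells. mig-13 encodes a single-pass membrane protein with CUB and LDL receptor domains that promotes anterior migration of Q descendants, downstream of the Hox gene lin-39 and upstream of ABL-1, SEM-5 and actin nucleation.

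In ce11 coordinates, read from the matching WBcel235 annotation of Ensembl release 115, mig-21 (WBGene00003252) lies on chromosome III from 5876947 to 5878380 on the minus strand. It has 1 annotated transcript with 5 exons and 1143 exonic bases. dpy-19 (WBGene00001078) lies on the same chromosome from 8659872 to 8667482, also on the minus strand, with 13 exons and 2155 exonic bases. Its longest intron spans 4537 bases, and 2 genes of the opposite strand, F22B7.1 and the noncoding F22B7.14, sit inside its introns without touching its exons. mig-13 (WBGene00003245) lies on chromosome X from 4796087 to 4800128 on the minus strand. It has 3 annotated transcripts of 7 to 9 exons and 1606 exonic bases in all, and the counts do not separate the transcripts.

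Exons of mig-21 share 48 bases with the noncoding F01F1.16 on the opposite strand, which had at most 3 counts in any library. Exons of mig-13 share 72 bases with F43C9.1 on the opposite strand, which had 0 to 265 counts per library. The strand setting of the counting is not given in the sources used here, so reads in these shared stretches cannot be assigned. Levels are given as CPM, a gene's counts relative to the library total after scaling by the trimmed mean of M values (TMM). F43C9.1 averaged 8.48 ± 1.14 CPM in early L4 DTCs (SD, n = 3), where mig-13 averaged 257 ± 23.5 CPM. In adult DTCs F43C9.1 averaged 15.1 ± 8.82 CPM beside 10.2 ± 2.34 CPM for mig-13, the 1 DTC stage at which F43C9.1 had the higher mean. In other cells F43C9.1 had the higher mean at early L4 (7.12 ± 2.58 CPM beside 3.59 ± 1.56 CPM for mig-13). It was also higher in adult other cells (2.01 ± 2.93 CPM beside 1.22 ± 1.87 CPM), while mig-13 had the higher mean at late L3 and late L4.

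Library totals ran from 8391423 to 18045720 counts. A set of 6 DTC markers (lag-2, hlh-12, apx-1, gon-1, unc-5 and nid-1) summed in DTC libraries to 10744 to 13639 CPM of the unscaled library total (late L3), 13602 to 15495 (early L4), 5119 to 5359 (late L4) and 314 to 412 (adult), and none of the 6 was at 0 in any group. The basement membrane gene nid-1 supplied 73.5% to 95.9% of those counts. The other-cell libraries ranged from 27.5 to 210 on the same sum. Markers of other cell types were present in the DTC libraries, and those of body wall muscle, intestine and neurons, among others, had their highest sums there in adults. At late L3, library 3 of other cells stood apart by 1252 CPM over 10 sperm markers, against 9.90 in the lowest library of its group. Library 3 of the late L3 DTCs stood apart for mig-21 and for other genes given with it.

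mig-21 was abundant in the DTC fraction at every stage and nearly absent from other cells. In late L3 DTCs it stood at 50.8, 53.5 and 700.2 CPM, from 983, 796 and 10441 counts, against 1.03, 0.773 and 4.30 CPM in other cells. In early L4 DTCs it stood at 512, 455 and 644 CPM, against 2.62, 1.41 and 3.26 CPM in other cells. Library 3 of the late L3 DTCs thus lay above the early L4 DTC libraries, far from the rest of its own group.

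In late L4 DTCs mig-21 reached 892, 1017 and 1659 CPM, against 0.300, 2.36 and 0.315 CPM in other cells. In adult DTCs it stood at 200.4, 162 and 168 CPM, against 4.29, 0.0995 and 0.413 CPM in other cells. Every DTC library lay above every other-cell library of its stage. The ratio of the group means was 132 (late L3), 221 (early L4), 1200.0 (late L4) and 110.5 (adult). Over all genes tested, 16.3% were called higher and 14.3% called lower in DTCs than in other cells for the mean of the 4 stages; because that contrast chose the genes, nothing is read from these shares for them.

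The low counts of mig-21 in other cells limit those ratios. Adult other cells held 75 counts of mig-21 in all, 70 of them in library 1, and late L4 other cells held 41, of which 33 were in library 2. A single count in adult library 2 corresponds to 0.0995 CPM with an exact 95% interval of 0.00252 to 0.554 CPM. Intervals of this kind cover counting error only. Without library 3 of the late L3 DTCs the fitted log2 difference between DTCs and other cells at late L3 was 4.50 instead of 7.03. Without adult library 1 of other cells the fitted log2 difference at the adult stage was 9.26 instead of 6.70, and without library 2 of late L4 other cells the one at late L4 was 11.88 instead of 10.20.

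Across the 8 groups the order of mig-21 by mean level was late L4 DTCs (1189 ± 412 CPM, SD, n = 3), early L4 DTCs (537 ± 97.1 CPM), late L3 DTCs (268 ± 374 CPM) and adult DTCs (177 ± 20.7 CPM), followed by the other-cell groups at early L4 (2.43 ± 0.942 CPM), late L3 (2.03 ± 1.97 CPM), adult (1.60 ± 2.34 CPM) and late L4 (0.991 ± 1.18 CPM). Late L4 DTCs did not overlap early L4 DTCs, and adult DTCs did not overlap any other-cell group. The other neighbours in that order overlapped. Per kilobase of exon, mig-21 ranked 77th of 16823 genes in late L4 DTCs and 806th in adult DTCs, against 13516th and 11618th in other cells at those stages.

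mig-13 was the second DTC gene of the set, at lower levels and with its highest mean at an earlier stage. In late L3 DTCs it stood at 55.0, 67.1 and 156 CPM, against 9.98, 8.87 and 5.26 CPM in other cells. In early L4 DTCs it stood at 239.7, 248 and 284 CPM, against 1.79, 4.50 and 4.49 CPM in other cells. Its DTC libraries lay above the other-cell libraries at both stages, by a ratio of means of 11.5 at late L3 and 71.6 at early L4.

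In late L4 DTCs mig-13 stood at 119, 159.5 and 134 CPM, against 14, 1.5 and 7.02 CPM in other cells. In adult DTCs it stood at 12.1, 7.60 and 10.8 CPM, against 3.37, 0.298 and 0 CPM in other cells. The 0 in adult library 3 of other cells stands against 0.31 CPM for 3 counts there, and its exact 95% interval reaches 0.381 CPM. The fractions did not overlap at either stage, with ratios of means of 18.3 at late L4 and 8.36 in adults. Of the 58 counts of mig-13 in adult other cells, 55 came from library 1, and without it the fitted log2 difference between DTCs and other cells in adults was 5.85 instead of 2.96.

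By mean level mig-13 was ordered early L4 DTCs (257 ± 23.5 CPM, SD, n = 3), late L4 DTCs (138 ± 20.4 CPM), late L3 DTCs (92.6 ± 55.0 CPM), adult DTCs (10.2 ± 2.34 CPM) and then other cells at late L3 (8.04 ± 2.47 CPM), late L4 (7.51 ± 6.28 CPM), early L4 (3.59 ± 1.56 CPM) and adult (1.22 ± 1.87 CPM). Early L4 DTCs stood clear of late L4 DTCs, and late L3 DTCs stood clear of adult DTCs. All other neighbours overlapped, including adult DTCs and late L3 other cells. Per kilobase of exon mig-13 averaged 160 ± 14.6 CPM in early L4 DTCs, where mig-21 averaged 470 ± 84.9 CPM.

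dpy-19 did not share this pattern, and its mean was not higher in the DTC fraction at any stage. In late L3 DTCs it stood at 0.672, 2.96 and 0.134 CPM, against 13.1, 15.3 and 12 CPM in other cells. In early L4 DTCs it stood at 0.0801, 0.563 and 4.93 CPM, against 6.99, 5.71 and 8.61 CPM in other cells. At these stages every DTC library lay below every other-cell library, although the DTC values rest on 1 to 63 counts each.

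In late L4 DTCs dpy-19 stood at 5.88, 2.81 and 1.79 CPM, against 0.300, 7.93 and 2.29 CPM in other cells. In adult DTCs it stood at 4.73, 2.05 and 19.1 CPM, against 20.7, 25.1 and 1.86 CPM in other cells. The fractions overlapped at both stages. The fitted log2 difference for the mean of the 4 stages was -1.56 ± 0.63 (SE), and its stage values were -3.42 (late L3), -1.94 (early L4), -0.01 (late L4) and -0.89 (adult). Without library 3 of the early L4 DTCs, which held 63 of the 74 counts of that group, the early L4 value was -4.64. Without library 2 of late L4 other cells, which held 111 of the 144 counts of that group, the late L4 value was 1.43.

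By mean level dpy-19 was ordered adult other cells (15.9 ± 12.3 CPM, SD, n = 3), late L3 other cells (13.5 ± 1.64 CPM), adult DTCs (8.62 ± 9.16 CPM), early L4 other cells (7.10 ± 1.45 CPM), late L4 other cells (3.50 ± 3.96 CPM), late L4 DTCs (3.49 ± 2.13 CPM), early L4 DTCs (1.86 ± 2.67 CPM) and late L3 DTCs (1.26 ± 1.5 CPM). Every pair of neighbours in that order overlapped. In late L3 other cells, where its replicates were closest together, dpy-19 stood above 52.9% of genes per kilobase of exon, and late L3 DTCs had it above 26.3%. In late L3 DTCs the mRNA of this enzyme averaged 0.582 ± 0.696 CPM per kilobase, where the mRNA of its substrate MIG-21 averaged 234.6 ± 327 CPM per kilobase. Library 3 raised that mig-21 mean, at 612.6 CPM per kilobase against 44.5 and 46.8 in libraries 1 and 2. dpy-19 had 2 counts in library 3.

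**Figure D1:**
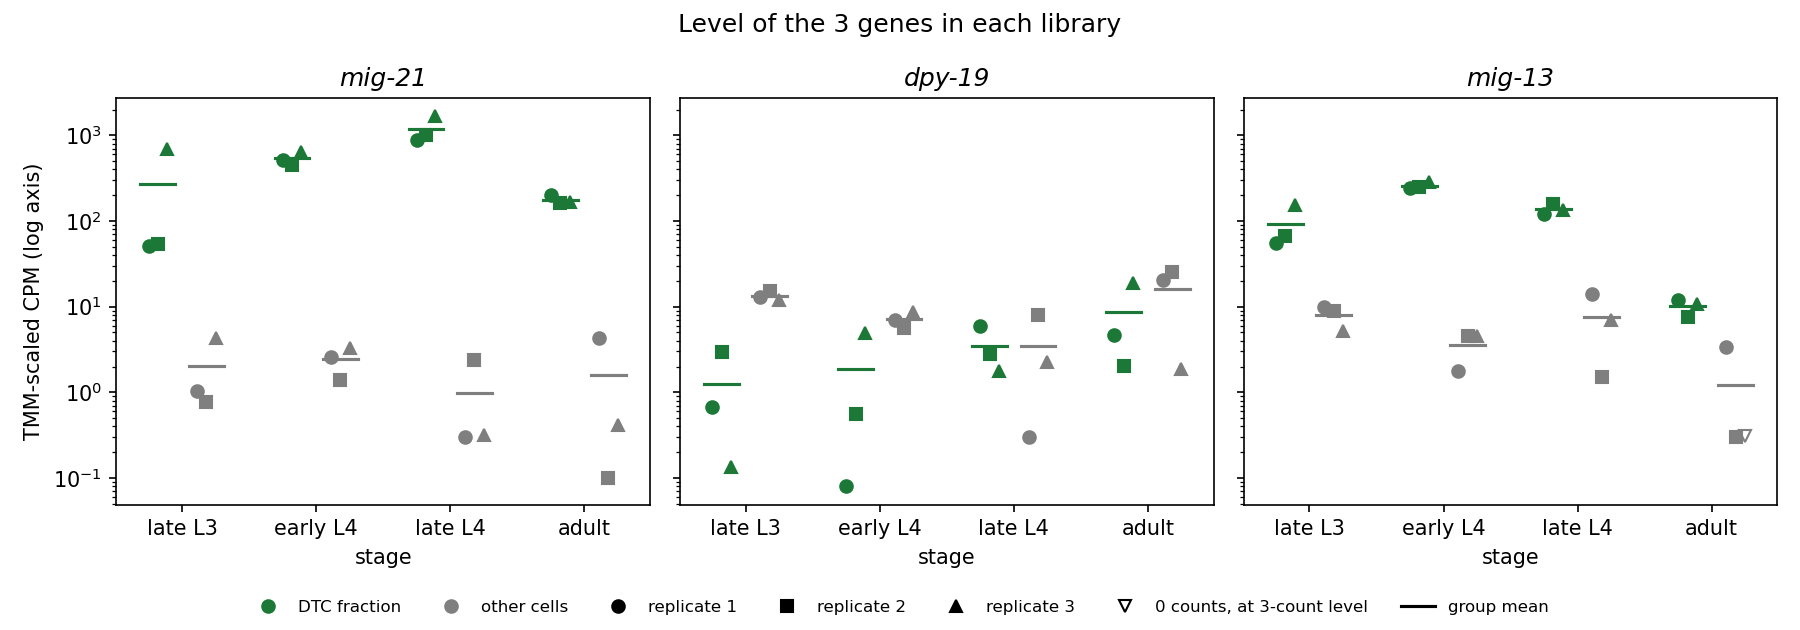
Level of mig-21, dpy-19 and mig-13 in each of the 24 libraries, as CPM on a log axis by stage, with DTC libraries in green to the left of other-cell libraries in grey and a bar at each group mean. mig-21 spans 50.8 to 1659 CPM in DTCs and stays at or below 4.30 CPM in other cells, mig-13 drops to 7.60 to 12.1 CPM in adult DTCs, and dpy-19 overlaps between fractions at late L4 and in adults.

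The design then allowed changes with stage to be tested within each fraction, a contrast that did not choose the genes. mig-13 changed with stage in DTCs and was the 1 gene of the 3 called there in edgeR with TMM scaling and the filter on low counts. edgeR's quasi-likelihood test with Benjamini-Hochberg adjustment gave an adjusted p of 0.00361 for any difference among the 4 DTC stages, a test that called 37.2% of all genes. Its level in adult DTCs was 10.2 ± 2.34 CPM against 138 ± 20.4 CPM in late L4 DTCs, a log2 fold change of -3.75 ± 0.87 (SE, adjusted p = 0.007), in a comparison that called 12.8% of genes. Adult DTCs were also lower than late L3 DTCs, with a log2 fold change of -3.18 ± 0.85 (adjusted p = 0.00728), where 35.2% of genes were called.

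The earlier steps of mig-13 had the shape of a peak but did not pass the test. Early L4 DTCs all lay above late L3 DTCs, with a log2 fold change of 1.47 ± 0.79 and an adjusted p of 0.338, and the step called 2.00% of genes. Late L4 DTCs all lay below early L4 DTCs, with -0.90 ± 0.78 and an adjusted p of 0.574, and 5.57% of genes were called. In a fit of those 2 groups alone the adjusted p of the late L4 step was 0.0192.

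mig-21 showed its highest level in late L4 DTCs, but none of its stage differences passed in edgeR with all libraries, TMM scaling and the filter on low counts. The test for any difference among the DTC stages gave an adjusted p of 0.0956 in edgeR, 0.0147 in edgeR without the filter and 0.0498 in DESeq2. Adult DTCs averaged 177 ± 20.7 CPM against 1189 ± 412 CPM in late L4 DTCs, without overlap, for a log2 fold change of -2.75 ± 1.02 (adjusted p = 0.0826). Early L4 over late L3 gave 1.00 ± 0.97 (adjusted p = 0.625), and late L4 over early L4 gave 1.15 ± 0.97 (adjusted p = 0.564). In a fit of the groups compared alone, late L4 over early L4 passed, with an adjusted p of 0.0301.

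Those mig-21 values depended on library 3 of the late L3 DTCs. Without it, the test for any DTC stage difference gave an adjusted p of 0.00535 in edgeR, and the adult level against late L4 had a log2 fold change of -2.92 with an adjusted p of 0.0266. The early L4 level against late L3 then had a log2 fold change of 3.48 (adjusted p = 0.094), and the adult level against late L3 was 1.71 (adjusted p = 0.181), against -0.60 with all libraries. Without both libraries numbered 3 at late L3, a choice made after the values were seen, the early L4 step was 3.37 with an adjusted p of 0.0363. The drop of mig-21 to adult also passed in DESeq2 (adjusted p = 0.0331), without the filter on low counts (0.0173), in a fit of those 2 groups alone (0.0015) and without library 1 of adult other cells (0.0368).

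**Figure D2:**
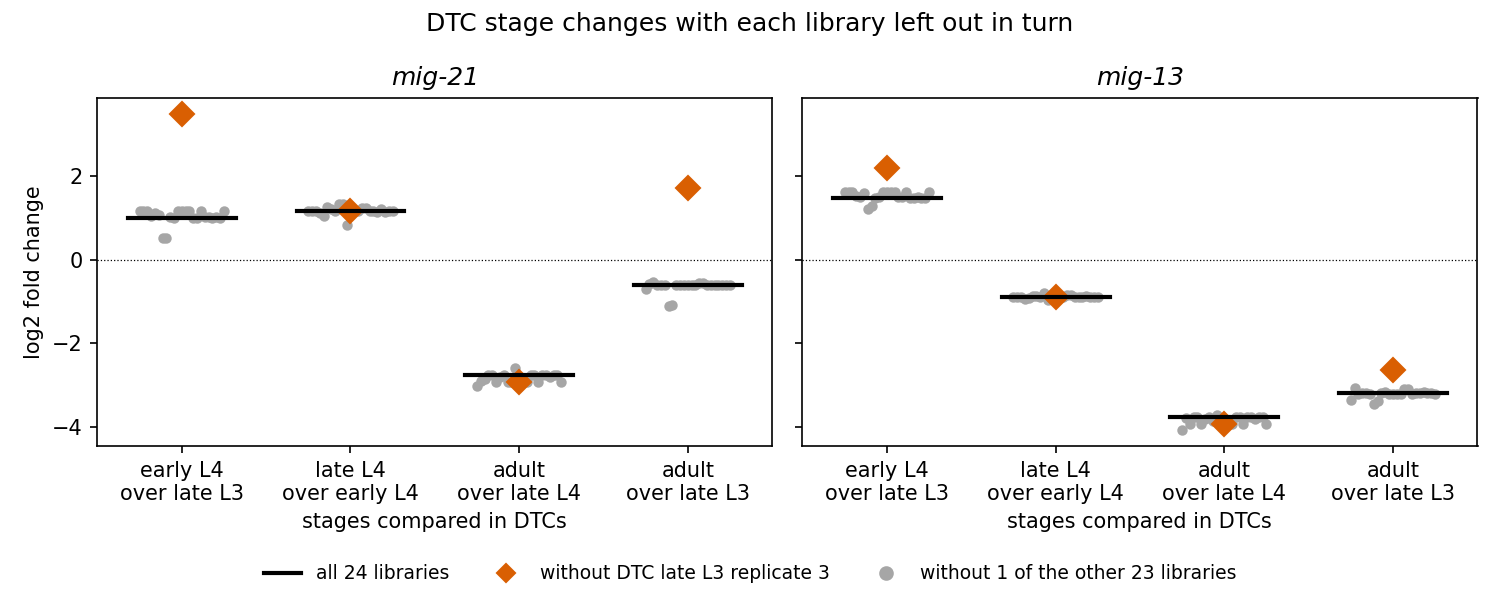
Log2 fold changes between DTC stages for mig-21 (left) and mig-13 (right) with all 24 libraries (black bars), without library 3 of late L3 DTCs (orange diamonds) and without each of the other 23 libraries (grey points). For mig-21 the diamond lies at 3.48 for early L4 over late L3 and at 1.71 for adult over late L3, far from the bars, while both adult changes of mig-13 stay between -4.08 and -2.64 in all 24 fits.

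The stage calls of mig-13 did not rest on any 1 library. Its adult change against late L4 ranged from -4.08 to -3.70 over the 24 fits that left out a library in turn, and the one against late L3 from -3.45 to -2.64. Both were called in all 24 fits, with adjusted p-values up to 0.0295 and 0.0298 in edgeR.

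The library that set mig-21 apart at late L3 was compared with the others across genes, with thresholds chosen after its values were seen. Of 7318 genes with at least 10 CPM in any of the 3 late L3 DTC libraries, 29 (0.396%) were at least 8-fold above both other libraries in library 3. mig-21, 13.1-fold above the higher of the other 2, ranked 11th among them. mig-13 was 2.32-fold above in the same library. In the other direction, 328 genes were at least 8-fold below both. Among the 10 genes with the largest excess, mig-39 stood at 16.2, 18 and 262 CPM in libraries 1, 2 and 3, with a mean of 670.1 CPM in early L4 DTCs, and F49E10.2 at 45.0, 19.5 and 695 CPM, with an early L4 mean of 2179 CPM. In both genes library 3 lay between the other 2 libraries and the early L4 mean, whereas mig-21 in library 3 lay above its early L4 mean. The 10 sperm markers, which summed to 112 to 583 CPM in early L4 DTCs, stood at 4.13 to 4.62 in all 3 late L3 DTC libraries. Whether the worms of library 3 differed in stage from those of the other late L3 libraries was not tested.

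dpy-19 passed no stage test in edgeR. Its DTC means were 1.26, 1.86, 3.49 and 8.62 CPM from late L3 to adult, and adult over late L3 gave a log2 fold change of 2.77 ± 1.32 (adjusted p = 0.107). The libraries of neighbouring DTC stages overlapped at each step. DESeq2 called the adult change against late L3, at 3.12 with an adjusted p of 0.0225, and adult library 3 with 104 counts carried most of the adult level; without that library the edgeR value was 1.41.

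The same steps in other cells were not called for any of the 3 genes in edgeR with TMM scaling and the filter on low counts. The test for any stage difference in other cells called 15% of all genes and gave adjusted p-values of 0.779 for mig-21, 0.506 for dpy-19 and 0.104 for mig-13. The single steps called 0.361% of genes for early L4 over late L3, 2.09% for late L4 over early L4, 6.71% for adult over late L4 and 11.3% for adult over late L3. mig-13 came closest, with log2 fold changes of -2.62 ± 0.85 for adult over late L3 (adjusted p = 0.0529) and -2.52 ± 0.85 for adult over late L4 (adjusted p = 0.0758). At an unadjusted p under 0.05, these changes and the test for any stage difference passed for mig-13 alone. All 3 were called for mig-13 in DESeq2 and in edgeR without the filter, where the adjusted p-values were 0.0114 for adult over late L3, 0.0199 for adult over late L4 and 0.0246 for any stage difference. With RLE scaling in edgeR the adult changes were called, with adjusted p-values of 0.0457 over late L3 and 0.0477 over late L4. Without library 1 of adult other cells the changes were -5.71 over late L3 (adjusted p = 0.00096) and -5.81 over late L4 (adjusted p = 0.00277).

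Whether a gene changed differently in the fractions was tested by the difference of the steps. No difference was called for the 3 genes in edgeR with all libraries, in tests that called 13.9% of all genes over all steps, 0.497% for early L4 over late L3, 0.379% for late L4 over early L4 and 7.14% for adult over late L4. At an unadjusted p under 0.05, mig-13 passed for early L4 over late L3 and mig-21 for adult over late L4. DESeq2 called none of these differences. For mig-21 the DTC step minus the other-cell step from late L4 to adult was -3.50 ± 1.47 with an adjusted p of 0.147. It was -0.70 without library 1 of adult other cells, -5.18 without library 2 of late L4 other cells, and -3.52 without both libraries numbered 3 at late L3, where it was called (adjusted p = 0.0465). Without library 3 of the late L3 DTCs the test over all steps gave mig-21 an adjusted p of 0.0463. The decline of mig-13 to adult differed between fractions by -1.23 ± 1.15 (adjusted p = 0.541), and by 1.88 without library 1 of adult other cells.

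**Figure D3:**
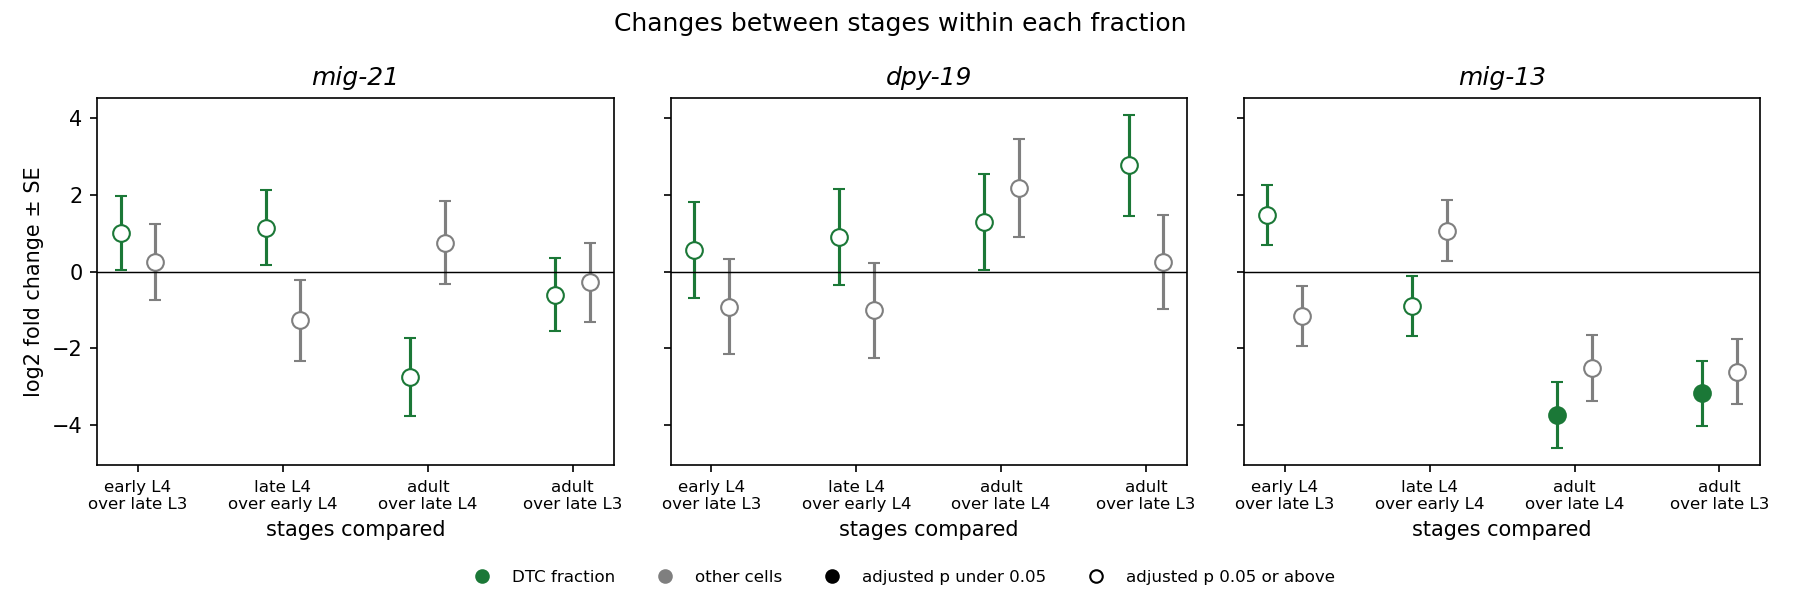
Log2 fold change with its standard error for each stage comparison, in DTCs (green, left of each pair) and other cells (grey), with filled points for an adjusted p under 0.05. The 2 filled points are mig-13 in DTCs, at -3.75 for adult over late L4 and -3.18 for adult over late L3.

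The decline of mig-13 in adult DTCs went with a decline of DTC markers and higher sums of body wall muscle, intestine and neuron markers in the same libraries. The 6 DTC markers summed to 314 to 412 CPM in adult DTCs against 5119 to 5359 in late L4 DTCs, while 8 body wall muscle markers summed to 9166 to 12982 CPM in adult DTCs against 2004 to 7617 in late L4 DTCs. The 8 intestine markers summed to 2536 to 9148 CPM in adult DTCs against 959 to 1173 in late L4 DTCs. Among them cpr-6 had by far the highest adult mean, at 8218 ± 5505 TMM-scaled CPM against 233 ± 54.6 in late L4 DTCs. The median log2 fold change of the 8 was 2.04. In that comparison 3 of the 6 DTC markers were called lower and none higher, with a median log2 fold change of -2.25, against -0.01 over all genes tested. Of the muscle markers 2 of 8 were called higher, and of the intestine markers 2 of 8. The 10 neuron markers summed to 571 to 717 CPM in adult DTCs against 262 to 430 in late L4 DTCs. Sums of oocyte, hypodermis and cuticle, gonadal sheath and spermatheca, and coelomocyte markers had higher means in adults, with overlapping libraries. The sperm marker sum had a lower mean in adults, also with overlap. Markers of other cell types did not all rise. The 12 germline markers summed to 211 to 471 CPM in adult DTCs against 603 to 959 in late L4 DTCs, and 3 were called lower. Of the hypodermis and cuticle markers 1 of 8 was called lower, and of the neuron markers 1 of 10 was called higher. No sperm, oocyte, gonadal sheath and spermatheca, or coelomocyte marker was called. Over all genes tested, 6.68% were called higher and 6.12% lower in that comparison. In such bulk samples fewer cells of a type and less RNA per cell cannot be told apart, and the part of these shifts in the change of mig-13 was not tested.

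Relative to the DTC markers, an added description made after the values were seen, mig-13 and mig-21 did not follow each other. Per 1000 counts of the 6 markers, mig-13 had 7.49, 16.9, 23.9 and 18.2 counts from late L3 to adult, and its adult libraries (15.7 to 20.7) overlapped its late L4 libraries (19.8 to 29.0). mig-21 had 19.3, 35, 205.4 and 319 counts, and its adult libraries (299.5 to 335) lay above its late L4 libraries (148.5 to 283). dpy-19 had 0.118, 0.106, 0.599 and 16 counts, and its adult libraries (4.23 to 36.6) lay above its late L4 libraries (0.306 to 0.979). Since nid-1 dominates that sum, the genes were also set against lag-2, the Notch ligand of the niche. The 2 scales differed in the stage of the highest mig-13 mean, which was late L4 per 1000 marker counts and early L4 per lag-2 count. Per lag-2 count it averaged 0.438 ± 0.155 at late L3 and 1.25 ± 0.0818 at early L4 (SD, n = 3). Per lag-2 count mig-13 averaged 0.204 ± 0.0536 in adult DTCs against 0.532 ± 0.176 in late L4 DTCs (SD, n = 3), without overlap, and mig-21 averaged 3.54 ± 0.645 in adult DTCs against 4.35 ± 0.706 in late L4 DTCs, with overlap.

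**Figure D4:**
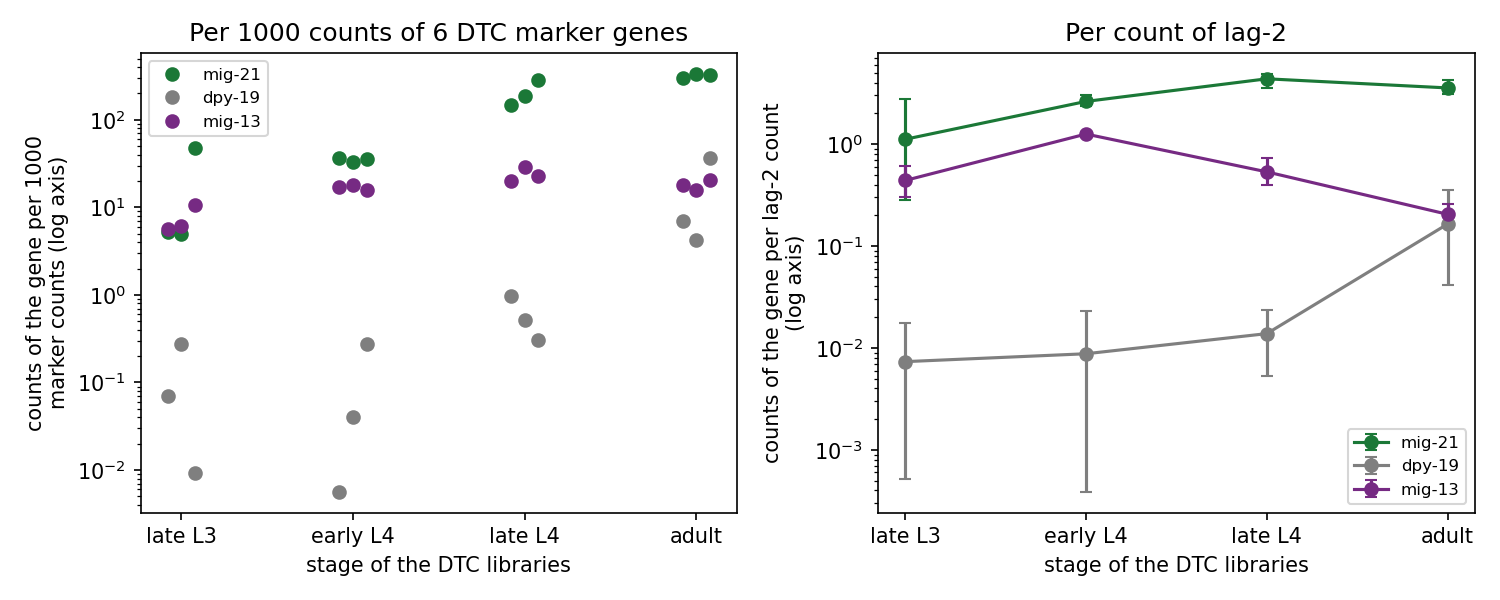
Counts of each gene per 1000 counts of 6 DTC marker genes in each DTC library (left) and per count of lag-2 as group mean with the lowest and highest library (right), both on log axes, from late L3 to adult. On the left, the mig-13 adult libraries overlap those of late L4 while the mig-21 adult libraries lie above them; on the right mig-13 falls below its late L4 range in adults and mig-21 stays within reach of it.

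The profiles most like each gene were taken over all 24 libraries and over the 12 DTC libraries, on log2 CPM with a prior count of 2. These correlations describe libraries that share stage, fraction and cell mixture. Over all 24 libraries the nearest to mig-21 were C04B4.1 (Pearson r = 0.967), WBGene00016470 (0.966), WBGene00008374 (0.962), F53B1.8 (0.955) and F21D9.1 (0.955). The niche ligand lag-2 stood 29th, with r = 0.921, and mig-13 stood 386th, with r = 0.82. Over the 12 DTC libraries the nearest were F40F8.5 (0.984), rbf-1, a rabphilin (0.97), unc-115, an actin-binding protein of axon guidance (0.97), F32B5.7 (0.966) and WBGene00008374 (0.963).

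For mig-13 the nearest profiles over all libraries were F57A8.1 (Pearson r = 0.952), C05C9.3 (0.949), the teneurin ten-1 (0.947), D2045.9 (0.943) and noca-2 (0.942). Over the DTC libraries they were catp-5, a P-type ATPase (0.993), F19B10.10 (0.992), F52B10.3, pign-1 and W02C12.2 (0.99 each), with lag-2 at 0.914. mig-13 and mig-21 correlated at 0.568 over these 12 libraries, and mig-21 with lag-2 at 0.534, below their values over all 24.

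dpy-19 had no close match over all libraries, where its nearest genes were F33E2.5 (Pearson r = 0.752), cpt-4, ttm-5, acdh-7 and M163.16 (0.732). It correlated negatively with mig-21 (-0.395) and mig-13 (-0.524). Over the DTC libraries its nearest genes were pgp-1, an ABC transporter (0.919), T22B7.8, asp-12, mmcm-1 and F35D11.3 (0.885). At counts this low the order among its matches carries little weight.

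Most genes listed for Q cell polarity and migration were higher in the DTC fraction for the mean of the stages. This list and those that follow were chosen with earlier results of these data known. Their calls for DTCs over other cells are therefore a description of the listed genes. Of 22 listed genes, all tested, 15 were called higher and 1 lower in DTCs than in other cells for the mean of the stages, with a median log2 fold change of 1.27 against -0.14 over all genes tested, of which 16.3% were called higher and 14.3% lower. The netrin receptor unc-40 was higher by a log2 of 1.40 ± 0.18 (SE, edgeR adjusted p = 5.2e-06), the receptor phosphatase ptp-3 by 0.88 ± 0.16 (0.000274) and the Fat-like cadherin cdh-4 by 1.53 ± 0.20 (8.22e-06). The largest were the kinase mig-15 at 2.98 ± 0.20, the Frizzled receptor lin-17 at 2.86 ± 0.29, the syndecan sdn-1 at 2.53 ± 0.13 and the Frizzled receptor mig-1 at 2.45 ± 0.25. The Hox gene lin-39, the activator of mig-13 in Q cells, was the 1 called lower, at -2.03 ± 0.67 (0.0259), and averaged 1.88 CPM in early L4 DTCs against 7.38 CPM in other cells. The count of genes called lower was 1 or 2 when a library was left out in turn. By stage from late L3 to adult, 6, 10, 11 and 6 of the 22 were called higher. The shares over all genes were 6.03%, 9.4%, 9.19% and 8.19%. In adults 1 was called lower, beside 5.12% of all genes, and the median was 0.18 against 0.11 over all genes.

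In the step from late L4 to adult DTCs, 11 of the 22 were called lower and none higher in edgeR, with a median log2 fold change of -1.25, and DESeq2 called 11 lower and 1 higher. The comparison called 6.68% of all genes higher and 6.12% lower, with a median of -0.01. The 4 largest were mig-1 at -3.26 ± 0.51, sdn-1 at -2.88 ± 0.26, unc-40 at -2.37 ± 0.37 and cdh-4 at -2.24 ± 0.42, all with edgeR adjusted p-values of 0.00145 or less. The summed DTC markers were lower in the same libraries, and their part in these changes was not tested.

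Of 16 genes of the WAVE, WASP and Arp2/3 actin nucleation machinery, 7 were called higher in DTCs than in other cells and none lower, with a median of 0.39, beside the 16.3% and 14.3% of all genes. The adaptor nck-1 at 2.00 ± 0.15, the kinase abl-1 at 1.83 ± 0.31, the adaptor sem-5 at 1.71 ± 0.19 and the Arp3 gene arx-1 at 0.84 ± 0.17 were the largest, and abl-1 and sem-5 are the partners named for MIG-13. By stage from late L3 to adult, 2, 6, 4 and 1 of the 16 were called higher, beside 6.03%, 9.4%, 9.19% and 8.19% of all genes. In adults 1 was called lower, beside 5.12% of all genes. From late L4 to adult DTCs 2 of the 16 were called lower, sem-5 at -1.73 ± 0.38 (edgeR adjusted p = 0.00483) and wip-1 at -1.04 ± 0.33 (0.0465), while abl-1 had -0.85 ± 0.61 (0.374). The median was -0.47, and 6.12% of all genes were called lower. The count ranged from 1 to 5 when a library was left out in turn, with 5 without library 1 of adult other cells.

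The other thrombospondin type 1 repeat proteins, the class of MIG-21, split by gene. Of 7 tested, the metalloprotease gon-1 (3.69 ± 0.69), the papilin mig-6 (3.20 ± 0.18) and unc-5 (2.89 ± 0.40) were called higher in DTCs, and the metalloproteases adt-1 (-2.81 ± 0.99) and adt-2 (-1.25 ± 0.30) were called lower, with a median of 0.30, beside a median of -0.14 and shares of 16.3% higher and 14.3% lower over all genes. The call of adt-1 rests on low levels. Its DTC means were 2.54, 0.0261, 0.0316 and 0.0487 CPM from late L3 to adult, against 2.3, 0.603, 0.896 and 0.327 CPM in other cells. At late L3 its DTC mean was not the lower one. gon-1 and unc-5 also belong to the DTC markers used here. From late L4 to adult DTCs mig-6 fell by 3.54 ± 0.36 on the log2 scale against late L4 (edgeR adjusted p = 9.97e-06) and unc-5 had a log2 fold change of -2.70 ± 0.80 (0.0298), with no gene called higher. The counts called lower, 2 in each comparison, ranged from 1 to 3 for DTCs over other cells and from 1 to 2 for adult over late L4 when a library was left out in turn.

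The last list held endoplasmic reticulum glycosylation genes, among them genes for the lipid-linked mannose donor of DPY-19 and for N-glycosylation. It had members called higher in DTCs than in other cells. It also had members called lower in DTCs at late L4 than at early L4 and in adults than at late L3. Of 22 listed genes 21 were in the table and tested, and 6 were called higher in DTCs than in other cells and none lower. The median was 0.28 against -0.14 over all genes, of which 16.3% were called higher and 14.3% lower. The 6 were pad-2 (1.56 ± 0.57), ostb-1 (0.73 ± 0.14), algn-5 (0.65 ± 0.21), ostd-1 (0.63 ± 0.14), stt-3 (0.44 ± 0.14) and ribo-1 (0.39 ± 0.12), among them 4 subunits of the oligosaccharyltransferase. The count was 2 with another scaling of the libraries (RLE), 3 in DESeq2, and 1 without library 1 of adult DTCs, library 3 of early L4 DTCs or library 3 of late L3 DTCs. By stage from late L3 to adult, 2, 2, 0 and 0 of the 21 were called higher, beside 6.03%, 9.4%, 9.19% and 8.19% of all genes. For the mean of the stages dpm-1, the dolichol phosphate mannose synthase, had 0.49 ± 0.19 with an edgeR adjusted p of 0.0504.

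Between DTC stages, 4 of the 21 were called lower and none higher for late L4 over early L4, with a median log2 fold change of -0.91, where 1.77% of all genes were called lower and the median was 0.0. All 4 encode subunits of the oligosaccharyltransferase, the complex that transfers the finished glycan to asparagines. They were ostd-1 (-1.30 ± 0.29, edgeR adjusted p = 0.00815), ostb-1 (-1.17 ± 0.28, 0.0161), ribo-1 (-1.16 ± 0.24, 0.00463) and the catalytic subunit stt-3 (-1.09 ± 0.28, 0.0238). stt-3 averaged 187 ± 42.9 CPM in late L4 DTCs against 399 ± 33.5 CPM in early L4 DTCs (SD, n = 3). In other cells the same step had a median of -0.45 for the list, against -0.01 over all genes. There 1 of the 21 was called lower and none higher, beside 0.243% of all genes called lower. None of the 21 was called for the DTC step minus the other-cell step, a test that called 0.379% of all genes. The count of DTC genes called lower was 2 without library 3 of early L4 DTCs or library 1 of late L4 DTCs.

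For adult over late L3 DTCs, 10 of the 21 were called lower and none higher, with a median of -1.05 against 0.04 over all genes, of which 16.5% were called lower. The 4 largest were the glucosyltransferase algn-8 (-2.04 ± 0.73, edgeR adjusted p = 0.0372), the mannosyltransferase algn-3 (-1.77 ± 0.51, 0.012), stt-3 (-1.37 ± 0.28, 0.00107) and the mannosyltransferase algn-1 (-1.31 ± 0.42, 0.0204). That count was 6 in DESeq2, 4 with RLE scaling, 4 without the filter and 3 in a fit of those 2 groups alone. It was 5 without library 3 of late L3 DTCs, also when library 3 of late L3 other cells was left out with it, 4 without library 3 of adult DTCs, and 6 without library 1 of late L3 DTCs, library 1 of adult DTCs or library 2 of early L4 other cells. None of the 21 was called in edgeR or DESeq2 for adult over late L4 DTCs, where 1 had an unadjusted p under 0.05 in edgeR. For adult over late L3 DTCs, 7 of the 8 body wall muscle markers and 6 of the 8 intestine markers were called higher, while 10 of 12 germline markers and 4 of 6 DTC markers were called lower. Also called higher were 9 of 10 sperm, 3 of 3 coelomocyte, 3 of 10 neuron and 2 of 8 oocyte markers. Sheath and spermatheca markers had 4 higher and 1 lower of 6, and hypodermis and cuticle markers 2 higher and 4 lower of 8. The part of these markers in the changes was not tested.

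In the same comparison, adult over late L3 DTCs, the other lists also had members called lower. Of the 22 Q cell genes 10 were called lower and 1 higher, with a median of -0.96. Of the 16 actin nucleation genes 4 were called lower and none higher, with a median of -0.53, and the count was 2 with RLE scaling, in a fit of those 2 groups alone, without library 2 of adult DTCs, and without both libraries numbered 3 at late L3. Of the 7 thrombospondin repeat genes 2 were called lower and 2 higher, with a median of -2.46, and 1 was called higher in a fit of those 2 groups alone, without any 1 library of adult DTCs, or without library 1 of late L3 DTCs.

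**Figure D5:**
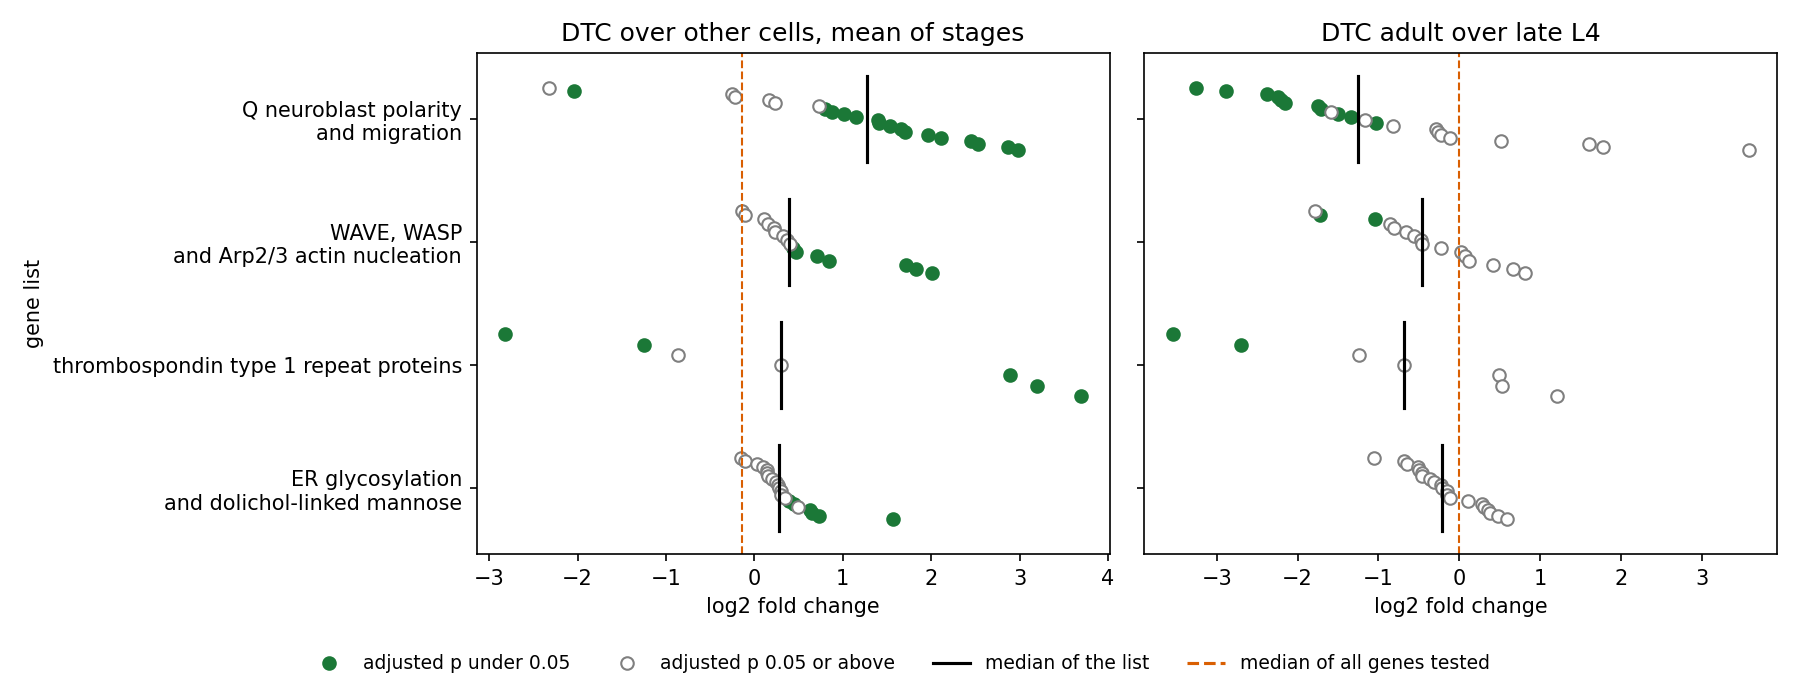
Log2 fold change of each gene of the 4 lists for DTCs over other cells as the mean of the stages (left) and for adult over late L4 DTCs (right), with filled points for an adjusted p under 0.05, a black bar at each list's median and a dashed line at the median of all genes tested. The Q cell list has its median at 1.27 on the left and at -1.25 on the right, and the glycosylation list has its median at 0.28 on the left and at -0.21 on the right.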

How the data were processed

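The authors deposited 1 table of whole raw read counts for 46778 gene IDs in 24 libraries. Per the submitters' processing notes, FastQC, cutadapt, Bowtie2 and HTSeq were used with build ce11; their versions and the strand setting were not given in the sources used here. Symbols were matched for 43818 IDs, and 99.6% of IDs lay in the Ensembl 115 annotation.

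From these counts, genes were kept by filterByExpr (edgeR 4.0.16, R 4.3.3), and TMM set the library scale. The quasi-likelihood fit took all 24 libraries at once with a mean for each of the 8 groups (common biological coefficient of variation 0.835). Calls used a Benjamini-Hochberg adjusted p under 0.05 over 16887 genes. Levels in CPM are relative to a library's counts after scaling by TMM factors of 0.601 to 1.47, while marker sums use the unscaled total. Totals of 8391423 to 18045720 counts set the precision; intervals are exact Clopper-Pearson at 95%.

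The alternatives were RLE scaling, no filter, DESeq2 1.42.0, a replicate block, fits of only the groups compared, and leaving out each library. Named genes were the 3 genes in every comparison, up to 4 called genes per list with the largest change plus 7 known partners, and 5 nearest profiles per gene; genes outside that rule (the overlapping and neighbouring genes, those high in 1 library, further called glycosylation genes, and lag-2 among the profiles) were named after their values were seen. The members and lists were chosen with earlier results of these data known. No label ties the 3 samples of a group to separate cultures. The p-values therefore cover the spread between samples, which may be technical. No sequence was printed.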

Additional observations from a re-analysis of the deposited data

Results flagged for a closer look

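mig-13 moved in opposite directions in the fractions between late L3 and early L4. Every early L4 DTC library (239.7 to 284 CPM) lay above every late L3 DTC library (55.0 to 156 CPM), while every early L4 library of other cells (1.79 to 4.50 CPM) lay below every late L3 library of other cells (5.26 to 9.98 CPM). The DTC step minus the other-cell step was 2.63 on the log2 scale, with an edgeR adjusted p of 0.332 and an unadjusted p of 0.029, so the difference did not pass the test over all genes. It ranged from 2.41 to 3.10 when each library was left out in turn.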

How the results depend on the processing

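Of 1793 values recomputed under 30 settings, 1726 were counted as the same and 33 newly passed the threshold. A further 26 were counted as changed in sign and 8 as moved. Values of DTCs over other cells were not held against a threshold, and the 1726 include changes of sign among them. For dpy-19 at late L4 that value was -0.006 with all libraries. It was positive in 3 of the 24 fits that left out a library, up to 1.43. The causes were not tested. Stage values in the next 2 paragraphs that did not change sign were called under the setting named. mig-13 in DTCs kept all 3 calls in every fit that left out a library.

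With DESeq2, dpy-19 DTC adult over late L3 was 3.12, mig-13 in other cells had an adjusted p of 0.0217 for any stage difference, -2.75 for adult over late L3 and -2.95 over late L4, and mig-21 had an adjusted p of 0.0498 for any DTC stage difference, -2.76 for adult over late L4 and 0.14 for the difference of the adult over late L3 steps. Without the filter on low counts the mig-13 values were 0.0246, -2.62 and -2.525, and mig-21 had 0.0147 and -2.76 in DTCs. With RLE scaling mig-13 in other cells had -2.70 and -2.90, and the mig-21 difference of adult over late L3 steps was 0.086. With only the groups compared, mig-13 DTC late L4 over early L4 was -0.88, and mig-21 in DTCs had 0.0463 for any stage difference, -2.85 for adult over late L4 and 1.16 for late L4 over early L4.

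Without both libraries numbered 3 at late L3, a setting chosen after seeing the data, mig-21 in DTCs had 0.00206 for any stage difference, 3.37 for early L4 over late L3, 1.76 for adult over late L3 and -2.75 for adult over late L4. Its other-cell adult over late L3 was 0.92, and its differences of steps were 0.84 for adult over late L3 and -3.52 for adult over late L4 (adjusted p = 0.0465). mig-13 then had 2.69 for DTCs over other cells at late L3, -2.83 for other-cell adult over late L3 and 0.25 for the difference of those steps.

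Equal replicate numbers did not pair the samples throughout: 17 of 84 correlations between same-numbered samples were above 0.1 (median -0.0088), 5 of 12 for DTCs and other cells of a stage. All 3 were above 0.1 for DTCs and other cells at late L3 (0.16, 0.115, 0.248) and for other cells at late L3 and late L4 (0.139, 0.138, 0.326), and the labels give no shared batch. The replicate block changed no call in 60 values; it gave 0.021 for mig-21 in other cells, adult over late L3, and -3.83 for mig-13 in DTCs, adult over late L4.

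Leaving out each library in turn gave these ranges for mig-21: adjusted p of 0.00535 to 0.177 for any DTC stage difference and 0.0463 to 0.455 for any difference of steps; in DTCs -1.10 to 1.71 for adult over late L3 and -3.02 to -2.60 for adult over late L4; in other cells -3.07 to 0.89 for adult over late L3, -2.22 to 2.42 for adult over late L4 and -0.14 to 1.35 for early L4 over late L3; for the differences of steps -1.50 to 2.45 for adult over late L3 and -0.36 to 3.00 for early L4 over late L3. DTCs over other cells ranged over 4.50 to 8.23 at late L3, 9.54 to 11.88 at late L4 and 6.04 to 9.26 in adults. For mig-13 the ranges were an adjusted p of 0.00346 to 0.231 for any stage difference in other cells, -5.71 to -2.12 for other-cell adult over late L3, -5.81 to -1.70 over late L4, -1.09 to 2.50 and -2.05 to 1.88 for the differences of those steps, and 2.79 to 3.82 at late L3 and 2.27 to 5.85 in adults for DTCs over other cells. For dpy-19 they were -0.18 to 1.89 for DTC adult over late L4, -1.74 to 2.16 for DTC early L4 over late L3, -1.07 to 3.08 for its difference of steps, -0.31 to 0.71 for other-cell adult over late L3, and -5.01 to -3.03 at late L3 and -4.64 to -1.38 at early L4 for DTCs over other cells.

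Counts of 0 to 4 in single libraries limit mig-21 and mig-13 in other cells, and 1 to 104 counts limit dpy-19 in DTCs.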

Other observations

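F43C9.2, the nearest protein-coding gene to mig-13 that does not overlap it, 5760 bases away on the opposite strand, was also higher in the DTC fraction. From late L3 to adult its DTC means were 674 ± 238, 677 ± 136, 3403 ± 1203 and 504 ± 94.4 CPM (SD, n = 3), against 61.3 ± 11.2, 43 ± 10.9, 135.5 ± 8.09 and 173 ± 18.3 CPM in other cells. Its log2 fold change for the mean of the stages was 3.41 ± 0.15 (SE, edgeR). The gene was named after its values were seen, so these values are a description. Its highest mean in DTCs was at late L4, like mig-21 and unlike its neighbour mig-13. Its adult level had a log2 fold change of -2.76 ± 0.30 against late L4 (edgeR adjusted p = 1.63e-05), where 12.8% of all genes were called. Against late L3 its adult level had -0.42 ± 0.28 (edgeR adjusted p = 0.245), where 35.2% were called. Early L4 over late L3 gave 0.01 ± 0.28 and was not called.

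The neighbours of mig-21 had other profiles. aldo-2, a fructose-bisphosphate aldolase gene 322 bases away on the same strand, averaged 5438 ± 1725 CPM in adult DTCs and 2839 ± 1016 CPM in adult other cells. F01F1.2, 174 bases away on the opposite strand, averaged between 30.9 and 39.3 CPM in the DTC groups and between 17.1 and 26.1 CPM in the other-cell groups.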
